A study of Mus musculus with 14 samples.

Results

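The 7 receptor chains described here are those of cytokines other than IL-2 that Tregs can sense: Il4ra, Il6ra, Il6st, Il10ra, Il21r, Il27ra and Ifngr1. A region of open chromatin was assigned to one of them if its midpoint had that gene as the nearest protein-coding transcription start or lay within the gene body, which gave 77 of the 67254 regions in the table. Of these, 74 were assigned by the nearest start and 33 lay within a gene body, and 71 passed the filter on low counts and were tested. Il6st had 21 regions (20 tested), Il21r 15 (15 tested), Ifngr1 and Il6ra 13 each (11 and 12 tested), Il10ra 9 (7 tested), Il4ra 5 (5 tested) and Il27ra 1 (1 tested). The 6 regions left out had a mean of 1 to 6.21 counts per library, and the tested ones had a mean of 6.29 to 268.

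Bulk ATAC-seq, in which a transposase tags accessible DNA and the count over a region measures its accessibility, was applied to splenic Tregs of mixed bone marrow (BM) chimeras. Rag1–/– hosts, which make no T or B cells of their own, were irradiated and received wild-type CD45.1+ BM mixed in equal parts with CD45.2+ BM of either genotype. After 6 to 8 weeks, CD45.2+ CD4+ Tregs were identified by a YFP reporter of Foxp3. They were sorted on surface markers into central Tregs (cTregs, CD44 low and CD62L high) and effector Tregs (eTregs, CD44 high and CD62L low). Control donors were Foxp3Cre Atg14+/fl (n = 3 libraries of each state) and Atg14-deficient donors Foxp3Cre Atg14fl/fl (n = 4 of each state), so that both genotypes expressed Cre from Foxp3 and the controls kept a single intact Atg14 allele. The question was whether Atg14, a component of the lipid kinase complex that starts autophagy, shapes the chromatin of these states. In bulk libraries, a change in the mix of cells within a sort and a change within each cell cannot be told apart.

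Cytokine receptors are built from a ligand-binding chain and a signalling partner, and bound receptors activate Janus kinases (JAKs) that phosphorylate STAT transcription factors. Il4ra binds IL-4 and is shared with IL-13, Il21r binds IL-21 and pairs with the common gamma chain, Il6ra and Il27ra bind IL-6 and IL-27 and both signal through gp130, which Il6st encodes, and Il10ra and Ifngr1 are the ligand-binding chains for IL-10 and IFN-γ. In Tregs these signals are known to bear on stability and on the adaptation of suppressive function to the type of inflammation.

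Of the 13 regions called between the states in at least 1 genotype, 5 are shown by their central 300 bases (GRCm38, plus strand): chr7:125561282-125561581 in an intron of Il4ra, chr10:19582269-19582568 upstream of Ifngr1, chr10:19598100-19598399 in an intron of Ifngr1, and the neighbours chr13:112396676-112396975 and chr13:112398152-112398451, far upstream of Il6st. They are shown as examples of both directions, the first 3 less accessible in eTregs and the last 2, the only ones called in that direction, more accessible. Capitals mark matches on either strand to the letters searched: STAT (TTCNNNGAA) and ETS (AGGAAG) in the Il4ra intron, KLF (GGGCGTG) and ETS in the upstream Ifngr1 region, STAT, NFAT (TGGAAA) and RUNX (TGTGGT) in the Ifngr1 intron and AP-1 (TGANTCA) in the first Il6st region. The second Il6st region held none of the 7 motifs searched, which included TCF/LEF (CTTTGAT).
Il4ra intron region: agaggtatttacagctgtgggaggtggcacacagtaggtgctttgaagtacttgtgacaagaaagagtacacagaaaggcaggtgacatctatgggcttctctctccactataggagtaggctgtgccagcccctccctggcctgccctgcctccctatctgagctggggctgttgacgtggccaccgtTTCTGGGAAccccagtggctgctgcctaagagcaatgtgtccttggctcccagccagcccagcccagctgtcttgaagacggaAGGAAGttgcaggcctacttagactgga
Ifngr1 upstream region: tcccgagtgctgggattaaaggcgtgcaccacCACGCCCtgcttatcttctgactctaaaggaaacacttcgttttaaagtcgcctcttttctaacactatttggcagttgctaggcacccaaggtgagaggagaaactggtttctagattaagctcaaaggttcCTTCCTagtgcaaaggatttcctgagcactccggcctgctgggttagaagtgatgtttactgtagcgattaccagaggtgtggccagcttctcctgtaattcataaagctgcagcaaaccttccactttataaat
Ifngr1 intron region: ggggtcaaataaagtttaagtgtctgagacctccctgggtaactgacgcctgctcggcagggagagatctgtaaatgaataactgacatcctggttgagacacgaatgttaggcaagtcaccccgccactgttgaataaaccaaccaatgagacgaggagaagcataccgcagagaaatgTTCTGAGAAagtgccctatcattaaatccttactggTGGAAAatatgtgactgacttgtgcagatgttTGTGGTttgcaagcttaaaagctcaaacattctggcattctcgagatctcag
Il6st first distal region: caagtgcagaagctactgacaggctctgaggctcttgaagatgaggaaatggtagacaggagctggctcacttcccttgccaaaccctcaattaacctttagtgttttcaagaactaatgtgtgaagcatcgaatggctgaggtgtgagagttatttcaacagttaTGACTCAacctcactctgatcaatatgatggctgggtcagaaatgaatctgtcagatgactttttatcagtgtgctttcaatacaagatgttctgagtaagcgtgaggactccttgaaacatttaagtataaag
Il6st second distal region: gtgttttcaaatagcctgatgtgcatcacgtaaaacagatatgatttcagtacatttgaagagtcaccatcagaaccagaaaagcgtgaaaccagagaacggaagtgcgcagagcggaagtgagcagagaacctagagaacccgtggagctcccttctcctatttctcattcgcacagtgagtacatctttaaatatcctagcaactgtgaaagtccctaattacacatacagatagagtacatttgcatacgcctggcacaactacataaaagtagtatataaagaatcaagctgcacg

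Over the 14 libraries, total counts in regions were between 2242983 and 5548189, and the typical biological coefficient of variation of a region within groups was 25.6%. Values are CPM, the count of a region scaled to a library total of 1000000 over all regions, and differences are log2 fold changes from edgeR's quasi-likelihood test with adjusted p over the 61366 tested regions. A region was called at an adjusted p below 0.05 and a log2 difference beyond 0.5. Among cTreg markers, the mean promoter level in control cTregs and control eTregs was 30.24 and 11.14 CPM for Ccr7, 10.12 and 4.341 CPM for Tcf7, 61.57 and 57.06 CPM for Lef1 and 94.47 and 52.75 CPM for Satb1. The summed promoters of eTreg markers, of which 5 of 6 had a region, overlapped between the states in both genotypes. They were at 256.3 to 293.1 CPM in control eTregs and 258.6 to 295.3 CPM in control cTregs. In Atg14-deficient cells they were at 289.5 to 327.2 CPM in eTregs and 259.6 to 300.7 CPM in cTregs. The genes of this sum did not all go in the same direction between the control states. The summed promoters of 3 of 5 CD8 T and NK cell markers (Cd8b1, Klrb1c and Eomes) were at 27.63 to 40.1 CPM in cTregs and 15.62 to 27.57 CPM in eTregs. Within that sum, the means in control cTregs and eTregs were 16.13 and 4.353 CPM for Cd8b1, 17.72 and 14.43 CPM for Eomes and, in the other direction, 0.9641 and 1.975 CPM for Klrb1c. Those of the Treg markers Il2ra, Ikzf2 and Ctla4 were at 135.5 to 165.6 CPM in cTregs and 101.6 to 136.4 CPM in eTregs. B cell and myeloid markers, of which 1 of 5 each had a promoter region, did not exceed 3.253 and 8.09 CPM. In control cells both were lower in cTregs than in eTregs (0 to 1.466 and 1.837 to 3.253 CPM for the B cell marker, 0.4458 to 2.872 and 2.928 to 5.773 CPM for the myeloid marker), and in Atg14-deficient cells both overlapped. The B cell marker was at 0.5294 to 1.541 CPM in Atg14-deficient eTregs, below the control eTregs. The part of these markers in the differences reported here was not tested. The Foxp3 promoter held no region of the table.

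Cell state was the main axis of difference at these loci. In control cells, 6 of the 71 tested regions were called between eTregs and cTregs, 1 higher and 5 lower in eTregs, beside 5.3% of all tested regions (2.01% higher and 3.29% lower). In Atg14-deficient cells, 11 were called, 2 higher and 9 lower, beside 9.81% of all tested regions (4.41% higher and 5.4% lower). At an unadjusted p below 0.05 with the same log2 difference, 17 passed in control cells (4 higher, 13 lower, beside 18.2%, 7.76% and 10.4% of all tested regions) and 20 in Atg14-deficient cells (5 higher, 15 lower, beside 23.1%, 11.4% and 11.8%). Groups did not overlap in 3 regions that were higher and 13 that were lower in control eTregs (beside 12.2% and 13.9%), and in 3 and 5 in Atg14-deficient eTregs (beside 7.13% and 8.38%). The adjusted lower calls were 7.04% of the members in control and 12.7% in Atg14-deficient cells and the higher calls 1.41% and 2.82%, counts too small to read as particular to the receptors. The members' median log2 difference was -0.28 in control and -0.18 in Atg14-deficient cells, beside -0.01 and 0.02 over all tested regions. With the replicate number within each genotype as a block, the adjusted count in control cells was 10 (3 higher). In the same fit, 10.4% of all tested regions were called (4.67% higher and 5.7% lower). With each library left out in turn, the count in control cells fell to 2 without control cTreg library 1 or 3 or any of the 3 control eTreg libraries, the unadjusted count there to 11 without control cTreg library 1, and the adjusted count in Atg14-deficient cells to 7, 3, 4 and 5 without Atg14-deficient cTreg library 1 or 3 or eTreg library 1 or 4.

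The 2 state comparisons share no library. Of the 71 regions, 55 (77.5%) had the same sign in both, 41 lower and 14 higher in eTregs, beside 73.3% of all tested regions, and the differences correlated across the 71 regions with r = 0.775 (0.682 across all tested regions, as a description, since regions share libraries and depth). Together the comparisons called 13 regions, of which 4 were called in both, 66.7% of those in control and 36.4% of those in Atg14-deficient cells, and all 13 kept their sign. Of the 13, 11 were lower and 2 higher in eTregs, and they lay at Ifngr1, Il4ra, Il21r and Il6st. No region of Il6ra, Il10ra or Il27ra was called. The difference between the 2 state effects, which is the genotype by state interaction, was not called for any region (0 of 71, and 0% of all tested regions at the adjusted threshold by edgeR's quasi-likelihood test). At an unadjusted p below 0.05 it passed for 0 of the 71 (beside 3.05% of all tested regions, 1.9% higher and 1.14% lower), with the smallest p at 0.0555, and DESeq2's Wald test also called 0. With the replicate number within each genotype as a block 3 passed at the unadjusted threshold, all higher, beside 4.52% of all tested regions (2.69% higher and 1.82% lower).

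**Figure D1:**
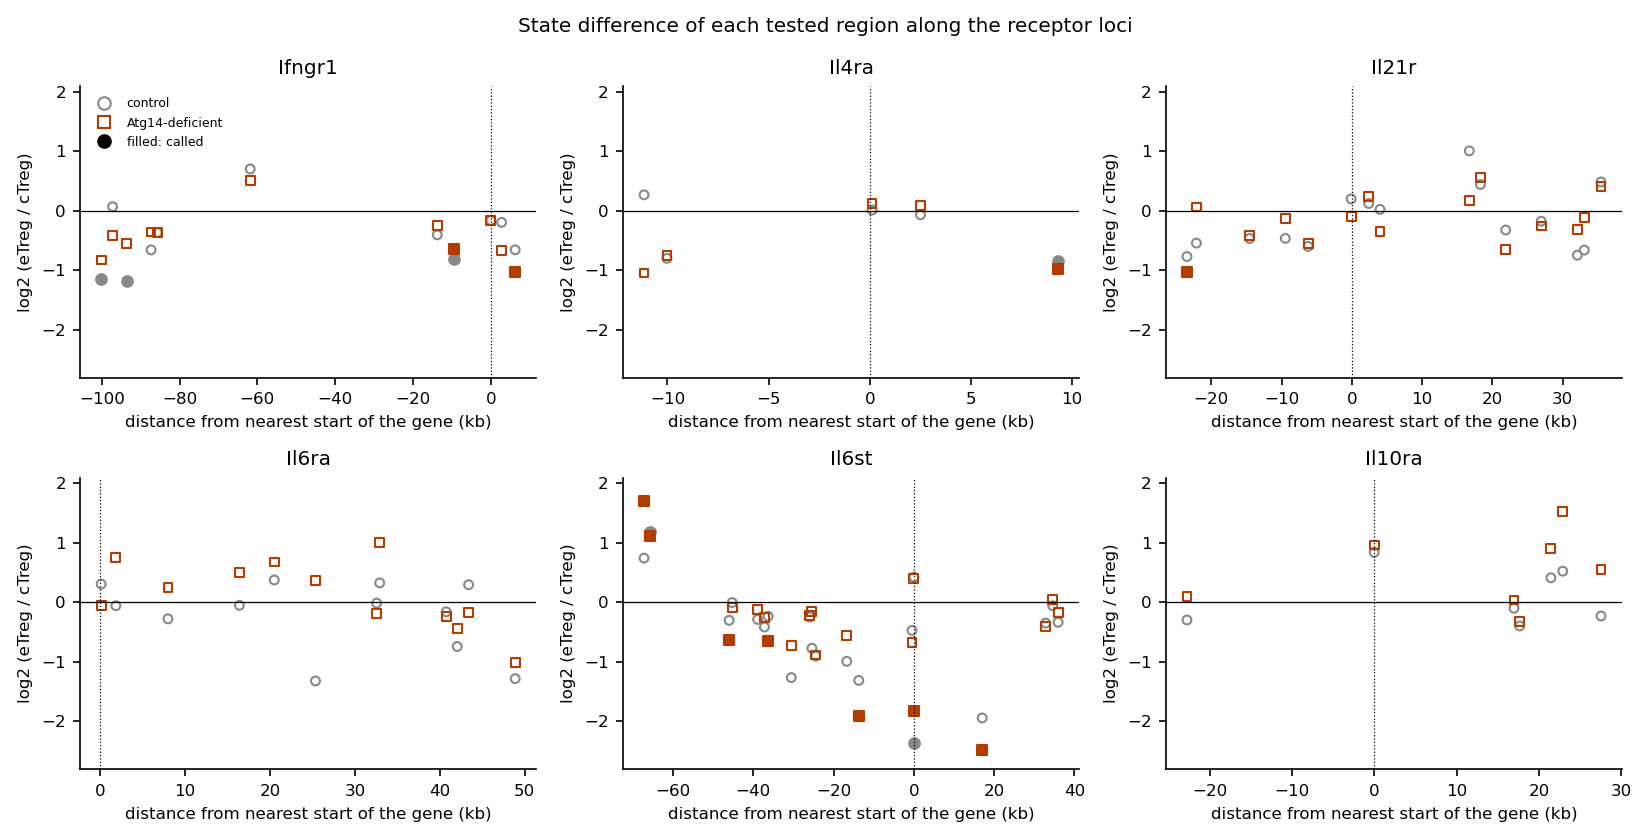
Log2 difference between eTregs and cTregs (y-axis) of each tested region against its distance in kb from the nearest transcription start of its gene (x-axis, negative upstream), for 6 receptors. Grey circles are control and orange squares Atg14-deficient cells, and filled symbols were called. The 13 called regions lie at Ifngr1, Il4ra, Il21r and Il6st, and only the 2 most distal Il6st regions are called above 0.

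Of the ligand-binding chains, Il4ra carried a state difference in its intron and none at its promoter. The intronic region (chr7:125561201-125561662, 9312 bp downstream of the start) had 36.7, 26.6 and 26.3 CPM in control cTregs and 15.6, 16.8 and 17.7 CPM in control eTregs. In Atg14-deficient cells it had 34.4, 48.3, 36.8 and 30.2 CPM in cTregs and 18.6, 22.2, 20.7 and 15.4 CPM in eTregs. Every eTreg library lay below every cTreg library of both genotypes. The log2 difference was -0.84 (SE 0.22, adjusted p = 0.025) in control and -0.97 (SE 0.19, adjusted p = 0.0022) in Atg14-deficient cells. The call in Atg14-deficient cells was kept with each library left out, and the call in control cells was lost without cTreg library 1 (-0.66, adjusted p = 0.186) or without eTreg library 1, 2 or 3 (adjusted p = 0.0979, 0.0708 and 0.0527). The promoter (chr7:125552038-125552431), the Il4ra region with the highest mean count, had 30.5 ± 2.45 CPM (SD, n = 3) in control cTregs and 30.9 ± 4.50 CPM (SD, n = 3) in control eTregs, a log2 difference of 0.02 (95% interval -0.38 to 0.41, adjusted p = 0.977 by edgeR).

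Il21r starts 24020 bp past the end of Il4ra on chromosome 7, and its called region sits between both genes. That region (chr7:125579885-125580200) begins 411 bp beyond the 3′ end of Il4ra and 23451 bp upstream of Il21r, to which it was assigned by the nearest start. It had 10.5, 11.3, 15.2 and 11.2 CPM in Atg14-deficient cTregs and 5.39, 4.60, 7.41 and 6.16 CPM in Atg14-deficient eTregs, without overlap. The log2 difference was -1.02 (SE 0.29, adjusted p = 0.024), and the call was lost without cTreg library 3 (-0.88, adjusted p = 0.103) or without eTreg library 1 or 4 (adjusted p = 0.063 and 0.0527), and with thinned counts (0.0584). Control libraries also did not overlap, at 12.7, 12.7 and 8.92 CPM in cTregs and 5.21, 8.40 and 6.67 CPM in eTregs. There the log2 difference of -0.77 (SE 0.33) was not called (adjusted p = 0.176 by edgeR). The Il21r region with the highest mean count (chr7:125588676-125589181, 14565 bp upstream) overlapped between the states in both genotypes, with log2 differences of -0.46 (adjusted p = 0.309) and -0.42 (adjusted p = 0.231). The other 14 Il21r regions were called in neither genotype. The nearest to a call lay past the end of the gene (chr7:125635421-125635808), at 24.2, 27.5 and 20.9 CPM in control cTregs and 11.4, 16.3 and 15.7 CPM in control eTregs, without overlap. Its log2 difference of -0.74 (SE 0.23, adjusted p = 0.0532 by edgeR) was called with the replicate number as a block (-0.75, adjusted p = 0.0192) and by DESeq2's Wald test (-0.71, adjusted p = 0.0371).

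Ifngr1, the IFN-γ-binding chain, had 4 called regions, all lower in eTregs. At chr10:19582244-19582593, 9530 bp upstream of the start, control cTregs had 23.9, 22.98 and 24.1 CPM and control eTregs 13.7, 12.6 and 14.1 CPM. The control groups were far apart and each was tight. Atg14-deficient cTregs had 35.3, 23.4, 33.1 and 27.0 CPM and Atg14-deficient eTregs 15.0, 23.9, 17.5 and 20.03 CPM, and only eTreg library 2 reached into the cTreg range. It was called in both genotypes, with log2 differences of -0.81 (SE 0.24, adjusted p = 0.0386) and -0.65 (SE 0.20, adjusted p = 0.037). The call in control cells was lost without any 1 of the 6 control libraries (-0.85 to -0.77, adjusted p = 0.0596 to 0.127) and that in Atg14-deficient cells without cTreg library 1 or 3 or eTreg library 1, 3 or 4 (-0.68 to -0.55, adjusted p = 0.0653 to 0.119). With counts thinned to the smallest total both were lost (adjusted p = 0.0703 and 0.0715), and with only the 2 groups compared in the fit that in Atg14-deficient cells was lost (0.0507).

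The Ifngr1 intron region (chr10:19598036-19598463, 6301 bp downstream of the start) had 46.2, 40.9, 39.4 and 28.3 CPM in Atg14-deficient cTregs and 15.0, 15.9, 24.4 and 20.03 CPM in Atg14-deficient eTregs. These groups did not overlap, and the log2 difference of -1.02 (SE 0.22, adjusted p = 0.0039) was called with each library left out. In control cells it had 36.2, 20.1 and 28.1 CPM in cTregs and 15.0, 14.7 and 23.2 CPM in eTregs, which overlapped. The log2 difference of -0.65 (SE 0.25) was not called (adjusted p = 0.136 by edgeR), but with the replicate number as a block it was -0.66 and called (adjusted p = 0.0442).

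The other 2 calls, both in control cells, lay far upstream, where Ifngr1 is the nearest protein-coding start and no link to the gene was measured. At chr10:19498053-19498613 (93616 bp upstream), control cTregs had 21.5, 20.1 and 25.0 CPM and control eTregs 9.11, 13.1 and 7.21 CPM, without overlap. Its log2 difference was -1.18 (SE 0.27, adjusted p = 0.0085), lost only without control eTreg library 3 (-0.98, adjusted p = 0.0563). In Atg14-deficient cells the same region had 31.1, 30.4, 24.2 and 22.5 CPM in cTregs and 20.4, 22.6, 16.7 and 14.4 CPM in eTregs, a log2 difference of -0.55 (SE 0.22, adjusted p = 0.105) that was called with the replicate number as a block (-0.55, adjusted p = 0.0458). The region at chr10:19491471-19492107 (100160 bp upstream) had 16.1, 16.3 and 10.7 CPM in control cTregs and 5.86, 6.56 and 7.21 CPM in control eTregs. Its log2 difference of -1.14 (SE 0.35) was at the edge of the threshold (adjusted p = 0.0497) and was lost in 9 of 14 fits with a library left out (-1.29 to -1.04, adjusted p up to 0.181), among them those without any 1 of the 6 control libraries. It was also lost under DESeq2's size factors, loess offsets, no filter on low counts and thinned counts (adjusted p = 0.0513 to 0.113). In Atg14-deficient cells its log2 difference of -0.82 (adjusted p = 0.0818) was called with the replicate number as a block (-0.79, adjusted p = 0.0417), without cTreg library 4 (-0.96, adjusted p = 0.0469) and without eTreg library 2 (-1.05, adjusted p = 0.0347). Of the 11 tested Ifngr1 regions, 9 had a log2 difference below 0 in both genotypes.

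**Figure D2:**
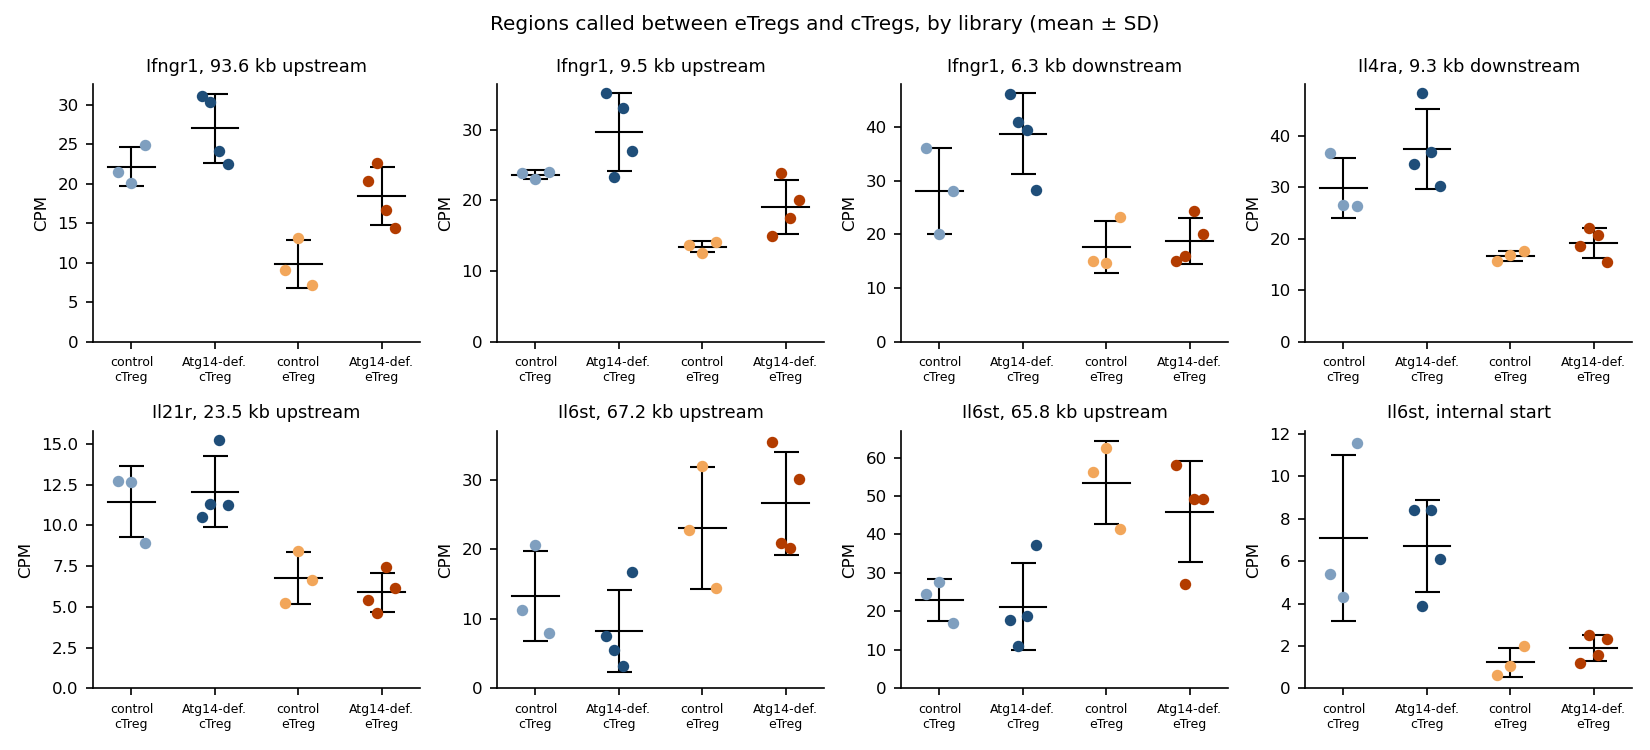
CPM (y-axis) of 8 regions called between eTregs and cTregs, with a point for each library in the 4 groups (x-axis), a line at the mean and a bar for the SD. The Il4ra and Ifngr1 regions are lower in eTregs, both distal Il6st regions are higher, and the internal Il6st start falls to between 0.651 and 2.51 CPM in eTregs.

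Il6st, which encodes the shared signalling chain gp130, was the only receptor with calls in both directions. The pair of regions farthest upstream was more accessible in eTregs. At chr13:112398083-112398520 (65768 bp upstream), control cTregs had 24.4, 27.5 and 16.9 CPM and control eTregs 56.3, 62.5 and 41.5 CPM, without overlap. Atg14-deficient cTregs had 17.6, 10.9, 18.9 and 37.3 CPM and eTregs 58.1, 27.2, 49.2 and 49.3 CPM, and cTreg library 4 and eTreg library 2 crossed over. The log2 differences were 1.18 (SE 0.32, adjusted p = 0.0353) and 1.11 (SE 0.28, adjusted p = 0.0181). The control call was lost without cTreg library 1 or 3 or eTreg library 1 or 2 (1.03 to 1.22, adjusted p = 0.106 to 0.139), and the Atg14-deficient call without cTreg library 1 or 3 or eTreg library 1 or 4 (adjusted p = 0.0526 to 0.0709).

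Its neighbour at chr13:112396626-112397025 (67244 bp upstream, 1057 bp away) had 7.56, 5.45, 3.15 and 16.7 CPM in Atg14-deficient cTregs and 35.4, 20.9, 20.1 and 30.1 CPM in Atg14-deficient eTregs. There was no overlap, and the log2 difference of 1.70 (SE 0.40, adjusted p = 0.0108) was called with each library left out. In control cells the values were 11.2, 20.6 and 8.03 CPM in cTregs and 22.8, 32.0 and 14.4 CPM in eTregs, which overlapped. The log2 difference of 0.75 (SE 0.43) was not called (adjusted p = 0.351 by edgeR), but with the replicate number as a block it was 0.82 and called (adjusted p = 0.0313). The test of the difference between the genotypes gave 0.96 (95% interval -0.26 to 2.17, unadjusted p = 0.117 by edgeR).

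The other called Il6st regions were less accessible in eTregs. The region chr13:112472406-112472688 lies at an annotated start within the gene, downstream of the main promoter, and had 5.38, 4.31 and 11.6 CPM in control cTregs and 0.651, 1.05 and 1.98 CPM in control eTregs. In Atg14-deficient cells it had 8.40, 3.89, 8.41 and 6.10 CPM in cTregs and 1.199, 2.51, 1.59 and 2.31 CPM in eTregs. All eTreg libraries of both genotypes were below all cTreg libraries, at a mean of 13.5 counts per library. The log2 differences were -2.36 (SE 0.55, adjusted p = 0.0111) and -1.82 (SE 0.47, adjusted p = 0.014), lost without control cTreg library 3 (-1.86, adjusted p = 0.0863) or eTreg library 1 (-2.11, adjusted p = 0.0621), and without Atg14-deficient cTreg library 3 (-1.68, adjusted p = 0.0612).

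The distal regions chr13:112417830-112418209 and chr13:112427534-112427951 (46050 and 36327 bp upstream) were lower in Atg14-deficient eTregs than in Atg14-deficient cTregs. The first had 55.4, 40.5, 56.3 and 34.4 CPM in cTregs and 30.6, 30.1, 39.2 and 20.6 CPM in eTregs, a log2 difference of -0.63 (SE 0.19, adjusted p = 0.0344). The second had 44.5, 44.4, 52.9 and 36.0 CPM in cTregs and 25.8, 36.8, 33.6 and 18.2 CPM in eTregs, a log2 difference of -0.65 (SE 0.18, adjusted p = 0.0215). Both overlapped between the states by 1 library on each side. The first call was lost without cTreg library 1 or 3 or eTreg library 1, 2 or 4 (adjusted p = 0.0513 to 0.146) and the second without cTreg library 3 or eTreg library 1 or 4 (adjusted p = 0.0651 to 0.101). In control cells neither was called, at -0.30 (adjusted p = 0.490) and -0.23 (adjusted p = 0.572). A further 2 Il6st regions of low count were called lower in Atg14-deficient eTregs, at 112450149 (13732 bp upstream, log2 difference -1.91, adjusted p = 0.0401, mean of 12.8 counts) and at 112491928 (in an intron, -2.48, adjusted p = 0.036, mean of 8.29 counts by the same edgeR fit). Both of these overlapped between the states. The first had 15.1, 3.504, 5.26 and 5.14 CPM in Atg14-deficient cTregs and 0.599, 0.837, 2.12 and 3.596 CPM in Atg14-deficient eTregs. The second had 0.840, 3.115, 6.84 and 4.82 CPM in cTregs and 0, 1.67, 0.265 and 1.03 CPM in eTregs. These regions fall outside the naming rule and are given because they complete the count. Of the 20 tested Il6st regions, 16 had a log2 difference below 0 in both genotypes and 3 above 0 in both.

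The main promoter of none of the 7 receptors passed the adjusted threshold in any of the 5 comparisons by edgeR. The main Il6st promoter (chr13:112463834-112464422) had 32.2 ± 4.52 CPM (SD, n = 3) in control cTregs and 42.9 ± 2.95 CPM (SD, n = 3) in control eTregs, the direction opposite to the internal start, and the control groups did not overlap. Its log2 differences were 0.43 (95% interval 0.03 to 0.82, adjusted p = 0.207) and 0.41 in Atg14-deficient cells (0.06 to 0.75, adjusted p = 0.12). The Il10ra promoter (chr9:45269035-45269348) was at 4.40, 4.31 and 7.13 CPM in control cTregs and 10.4, 10.5 and 7.03 CPM in control eTregs. In Atg14-deficient cells it was at 3.36, 2.34, 6.31 and 4.50 CPM in cTregs and 7.19, 8.37, 6.35 and 11.3 CPM in eTregs. The control values met at a single pair of libraries, and the Atg14-deficient groups did not overlap. Its log2 differences of 0.84 (SE 0.40, adjusted p = 0.231) and 0.97 (SE 0.36, adjusted p = 0.0801) did not pass edgeR's adjusted threshold. The promoters of Ifngr1, Il21r, Il6ra and Il27ra had log2 differences between -0.16 and 0.31 in control and between -0.16 and -0.05 in Atg14-deficient cells, none with an adjusted p below 0.52.

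Per length, the promoters fell in the order Ifngr1 (a mean of 91.2 CPM per kb over the 14 libraries), Il4ra (80.1), Il6st (63.8), Il21r (36.3), Il27ra (29.8), Il10ra (21.3) and Il6ra (19.0). The ranges over libraries of each pair of neighbours in that order overlapped, and the order of group means turned for Ifngr1 and Il4ra in Atg14-deficient eTregs (84.7 and 85.0), for Il27ra and Il10ra in control eTregs (29.3 and 29.7) and for Il10ra and Il6ra in Atg14-deficient cTregs (13.1 and 20.1). Il27ra had its promoter as its only region (chr8:84042181-84042804), at 18.4 ± 4.07, 19.3 ± 1.19, 18.2 ± 2.98 and 18.2 ± 1.23 CPM (SD) in control cTregs, Atg14-deficient cTregs, control eTregs and Atg14-deficient eTregs. Those values overlapped in every comparison, and the 95% interval of the state difference was -0.50 to 0.48 in control cells.

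**Figure D3:**
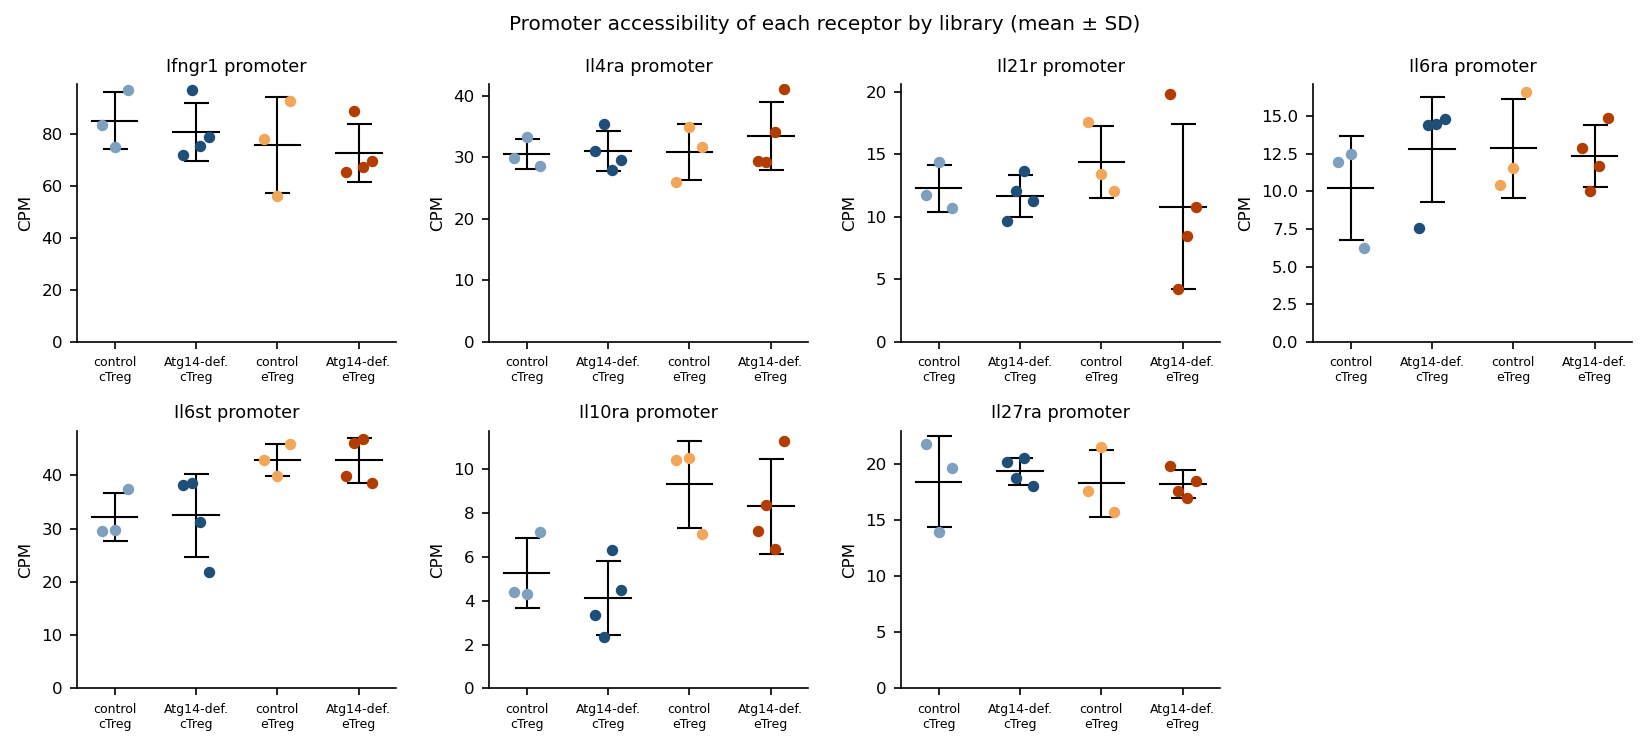
CPM (y-axis) of the promoter region of each of the 7 receptors, with a point for each library in the 4 groups (x-axis), a line at the mean and a bar for the SD. The Il6st and Il10ra promoters had higher means in eTregs of both genotypes, and neither passed the adjusted threshold.

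Loss of Atg14 left no receptor region called. In eTregs, edgeR's test called 0 of the 71 at the adjusted threshold, beside 0.0228% of all tested regions (0.0212% higher and 0.00163% lower), and the smallest adjusted p was 0.331. DESeq2's Wald test also called 0. At an unadjusted p below 0.05 with a log2 difference beyond 0.5, 5 regions passed in edgeR's test, all higher in Atg14-deficient eTregs, beside 6.36% of all tested regions (4.59% higher and 1.77% lower). In 8 of the 71 regions every Atg14-deficient eTreg library lay above every control eTreg library, beside 4.97% of all tested regions, and in none did every library lie below (beside 3.51%). Log2 differences above 0 were found for 55 of the 71 (77.5%, beside 56.2% of all tested regions), with a median of 0.22 beside 0.06 (0.17 beside 0.01 under TMM scaling). Without Atg14-deficient eTreg library 3, 9 regions passed the unadjusted threshold. Summed over all member regions, Atg14-deficient eTregs had 1033 to 1109 CPM and control eTregs 951 to 1020 CPM, without overlap. Beside this, the summed promoters of the Treg markers (3 of 4 genes) were at 125.5 to 136.4 CPM in Atg14-deficient and 101.6 to 110.5 CPM in control eTregs. The mean promoter level in Atg14-deficient and control eTregs was 19.47 and 11.14 CPM for Ccr7, 5.357 and 4.341 CPM for Tcf7, 68.43 and 57.06 CPM for Lef1 and 57.69 and 52.75 CPM for Satb1. Their part in the receptor values was not tested.

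Among the 5 regions, the one 93616 bp upstream of Ifngr1 had the smallest unadjusted p. Control eTregs had 9.11, 13.1 and 7.21 CPM there and Atg14-deficient eTregs 20.4, 22.6, 16.7 and 14.4 CPM, without overlap, and the log2 difference was 0.91 (SE 0.25, unadjusted p = 0.0011, adjusted p = 0.331). In cTregs the same difference was 0.29 (SE 0.24), and the test of the interaction gave 0.63 (95% interval -0.08 to 1.33, unadjusted p = 0.0781 by edgeR). Its state difference in control cells is described above and shares the control eTreg libraries with this comparison.

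Il10ra and Il6ra, the ligand-binding chains for IL-10 and IL-6, held 3 of the other regions. At chr9:45247430-45247965, beyond the 3′ end of Il10ra, in an intron of BC049352 and 21448 bp downstream of its start, control eTregs had 5.86, 4.72 and 5.77 CPM and Atg14-deficient eTregs 9.89, 8.37, 10.1 and 12.6 CPM. At chr9:45291707-45292192 (22801 bp upstream of Il10ra) the values were 9.11, 14.4 and 8.29 CPM and 20.4, 14.2, 16.1 and 17.5 CPM. The first pair of groups did not overlap and the second met at a single pair of libraries. Their log2 differences were 0.91 (SE 0.37, adjusted p = 0.55) and 0.69 (SE 0.28, adjusted p = 0.553). In the Il6ra intron, at chr3:89905043-89905355, control eTregs had 2.60, 4.20 and 3.61 CPM and Atg14-deficient eTregs 7.79, 10.9, 5.82 and 4.88 CPM, a log2 difference of 1.04 (SE 0.44, adjusted p = 0.566). These groups did not overlap, at a mean of 18.3 counts per library. The Il21r region past the end of the gene (chr7:125635421-125635808) had 11.4, 16.3 and 15.7 CPM and 26.4, 19.7, 18.5 and 21.3 CPM, also without overlap, with a log2 difference of 0.56 (SE 0.22, adjusted p = 0.531 by edgeR).

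In cTregs, adjusted calls numbered 0 of the 71 in edgeR's test (beside 0.0163% of all tested regions, 0.0147% higher and 0.00163% lower), and by DESeq2's Wald test. At an unadjusted p below 0.05, 2 passed, both higher in Atg14-deficient cells, beside 3.34% of all tested regions (1.99% higher and 1.35% lower). No region had groups that did not overlap (0 of 71, beside 3.05% higher and 2.45% lower). They were an Ifngr1 region 97232 bp upstream (8.20 ± 1.91 CPM, SD, n = 3, and 14.5 ± 3.60 CPM, SD, n = 4; log2 difference 0.78, SE 0.30) and an Il6st region 45289 bp upstream (9.14 ± 1.59 and 14.5 ± 5.07 CPM; 0.67, SE 0.33). Both overlapped between the genotypes, and both are named because the count is small. Log2 differences above 0 were found for 70.4% of the 71 regions, beside 53.5% of all tested regions, with a median of 0.11 beside 0.03. The count of 2 became 5 without Atg14-deficient cTreg library 2, 4 without library 4, and 1 without control eTreg library 2 or 3 or Atg14-deficient eTreg library 1 or 4, which enter through the shared estimate of the spread.

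**Figure D4:**
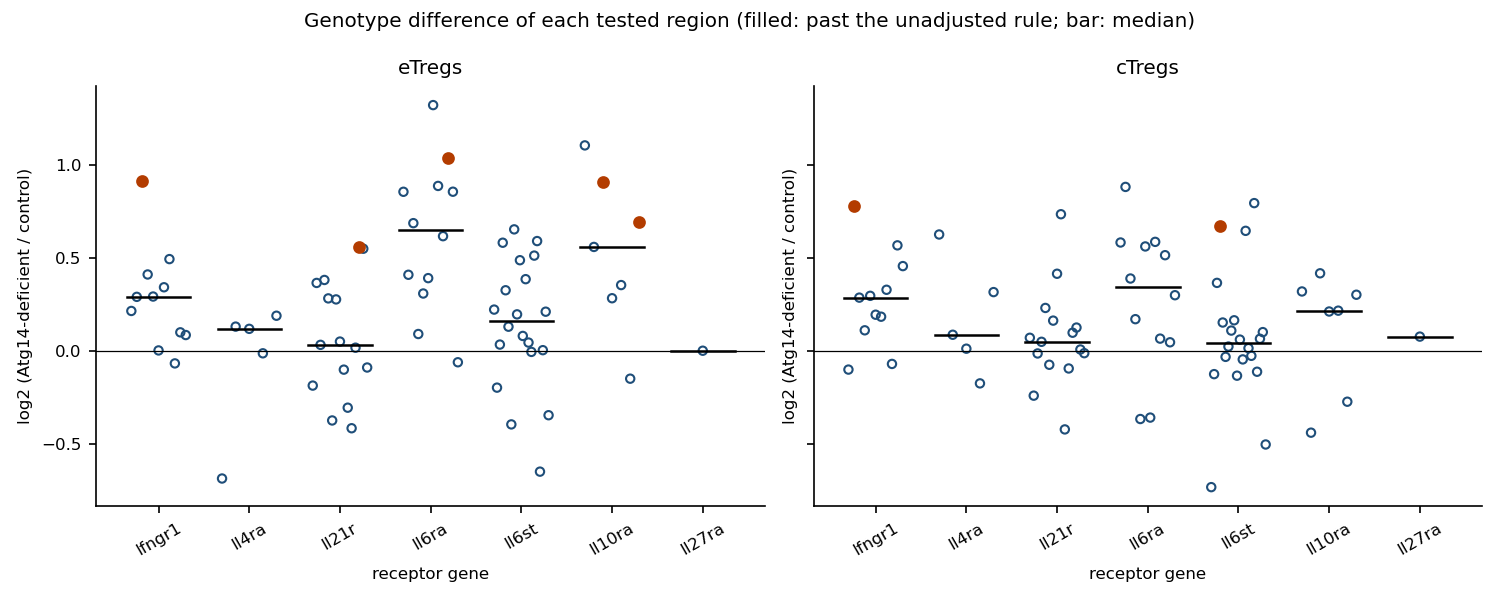
Log2 difference between Atg14-deficient and control cells (y-axis) of each tested region, grouped by receptor (x-axis), in eTregs (left) and cTregs (right). Filled points passed the unadjusted threshold, 5 in eTregs and 2 in cTregs, open points did not, and bars are medians.

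Summed over its regions, each locus gave a level per library that rests on more counts. Ifngr1 had 335, 269 and 306 CPM in control cTregs, 385, 363, 342 and 314 CPM in Atg14-deficient cTregs, 241, 205 and 261 CPM in control eTregs and 255, 294, 255 and 291 CPM in Atg14-deficient eTregs. The order of the groups was thus Atg14-deficient cTregs, control cTregs, Atg14-deficient eTregs and control eTregs, and each overlapped its neighbour. Within a genotype the states did not overlap, with log2 differences of -0.36 in control (SE 0.11, adjusted p = 0.0444) and -0.36 in Atg14-deficient cells (SE 0.10, adjusted p = 0.0132) in an edgeR fit of 15373 summed genes. Both are smaller than the 0.5 that a call required.

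No locus was called at the adjusted threshold in either state comparison, where 5.74% and 11.8% of summed genes were called in control and Atg14-deficient cells. At the unadjusted threshold 0 of the 7 passed, beside 12.6% and 17.9% of summed genes, and for the interaction 0 beside 0% adjusted and 2.71% unadjusted. Il4ra had 87.1 ± 6.03 and 67.6 ± 7.04 CPM (SD, n = 4) in Atg14-deficient cTregs and eTregs, without overlap. The log2 difference was -0.37 (SE 0.12, adjusted p = 0.0317 by edgeR), smaller than the 0.5 that a call required. In control cells Il4ra had 77.6 ± 9.33 and 64.1 ± 6.15 CPM (SD, n = 3), with overlap (-0.28, SE 0.13, adjusted p = 0.206 by edgeR). Il6st, whose regions moved in both directions, had 347 ± 14.4 and 331 ± 4.77 CPM (SD, n = 3) in control cTregs and eTregs, a log2 difference of -0.07 (95% interval -0.26 to 0.12) whose sign turned under loess offsets (0.05). Il21r had 241 ± 54.0 and 212 ± 38.1 CPM (SD, n = 3), with overlap.

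Between genotypes, the Il6ra locus had 64.7, 84.2 and 69.9 CPM in control eTregs and 90.2, 97.5, 102 and 88.6 CPM in Atg14-deficient eTregs. The groups did not overlap, and the log2 difference was 0.37 (SE 0.13, adjusted p = 0.247). Of its 12 tested regions, 11 had a log2 difference above 0 in eTregs. Il10ra had 37.7, 51.2 and 33.2 CPM and 60.8, 50.6, 57.2 and 63.7 CPM, which met at a single pair of libraries, with a log2 difference of 0.52 (SE 0.18, adjusted p = 0.221). Adjusted calls covered 0.156% of summed genes in eTregs and 0.0585% in cTregs, and 0 of the 7 loci in edgeR's test. At an unadjusted p below 0.05 with a log2 difference beyond 0.5, Il10ra was the single locus past the threshold in eTregs (beside 4.73% of summed genes) and none passed in cTregs (2.13%). Il10ra no longer passed without control eTreg library 1 or 3 or Atg14-deficient eTreg library 4, or under TMM scaling (0.49).

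**Figure D5:**
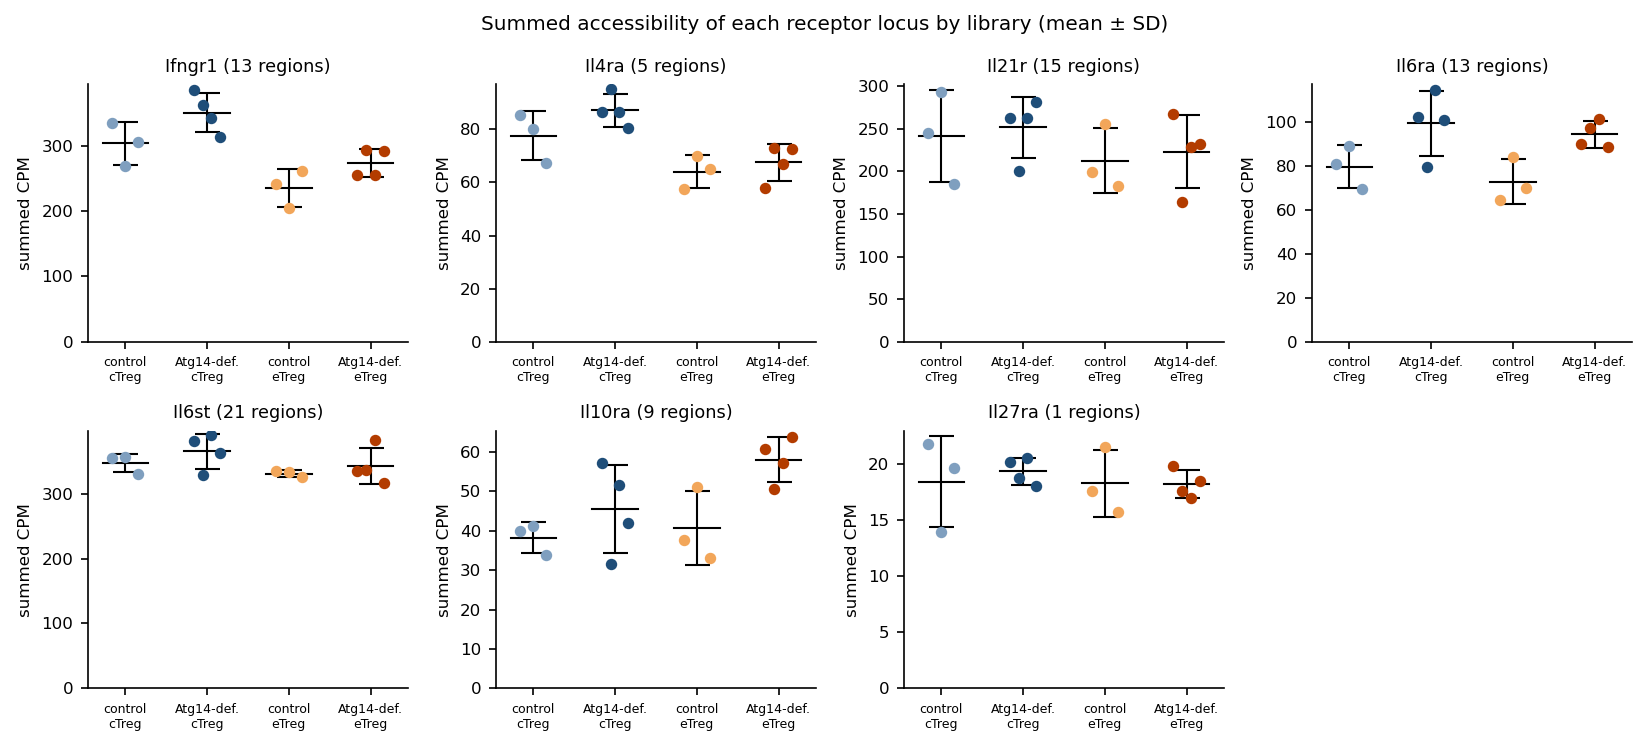
Summed CPM (y-axis) of all regions of each receptor locus, with a point for each library in the 4 groups (x-axis), a line at the mean and a bar for the SD. The libraries of the 2 states do not overlap at Ifngr1 within a genotype, nor at Il4ra in Atg14-deficient cells. Those of the 2 genotypes do not overlap at Il6ra in eTregs. No locus was called at the adjusted threshold.

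Of 20 further genes of this signalling family (partner chains such as Il10rb and Ifngr2, chains of other cytokine receptors such as Il7r, Il9r, Il12rb2 and Ifnar1, JAKs and STATs), 144 regions were tested. In control cells 0 were called higher and 12 lower in eTregs (beside 2.01% and 3.29% of all tested regions), and in Atg14-deficient cells 5 higher and 23 lower (beside 4.41% and 5.4%). Il7r, the IL-7-binding chain, held 3 and 6 of the lower calls in the 2 genotypes, and Jak1, the kinase common to most of these receptors, also 3 and 6. The second chains of the IL-10 and IFN-γ receptors had a region each that was lower in both genotypes, with log2 differences of -1.65 and -0.99 at Il10rb (chr16:91443381-91443653) and -1.41 and -1.82 at Ifngr2 (chr16:91522371-91522836). Higher calls in Atg14-deficient eTregs came from Il12rb1, Il12rb2, Lifr and the Tyk2 promoter. Il9r, Ifnar1, Jak2, Stat3 and Il12rb2 held further lower calls. Neither genotype comparison nor the interaction called any of these regions, and 8 higher and 1 lower passed the unadjusted threshold in eTregs (beside 4.59% and 1.77% of all tested regions).

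As a description over the 14 libraries, the summed genes whose log2 CPM followed each receptor most closely were Ms4a4d (r = 0.940) and Rsbn1l (0.914) for Ifngr1, Grb7 (0.934) and Csk (0.932) for Il10ra, Nsmce1 (0.946) and Ifng (0.919) for Il21r, Sla (0.897) for Il6ra, Pdlim2 (0.898) and Cldn4 (0.894) for Il4ra, Cnga1 (0.893) and Zfp831 (0.873) for Il6st, and Arl2bp (0.801) and Rnf182 (0.797) for Il27ra. They were taken from the 2 highest of 7397 genes (7398 for Il27ra), and they share libraries and depth.

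In the central 200 bp, 11 of the 71 member regions (15.5%) held the STAT letters TTCNNNGAA, beside 6.09% of 61322 regions with sequence. They lay at Ifngr1 (4), Il6st (4), Il4ra (2) and Il21r (1). Of the 11 regions called lower in eTregs, 3 held them, the Il4ra intron, the Ifngr1 intron and the Il6st region 46050 bp upstream, and of the 2 called higher, 0 did. ETS letters (AGGAAG) were in 40.8% of members and 34.8% of all, RUNX letters (TGTGGT) in 22.5% and 22.7%, NFAT letters (TGGAAA) in 14.1% and 16.6%, AP-1 letters (TGANTCA) in 11.3% and 11.6%, KLF letters (GGGCGTG) in 2.82% and 4.21%, and TCF/LEF letters (CTTTGAT) in 1.41% and 3.8%. A match says that the letters are present and not that a factor binds. Median GC content was 63.0% in the 9 promoter regions and 49.5% in the other 62, beside 66.0% and 48.5% over all tested regions.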

How the data were processed

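The deposited table holds, for 67254 regions and 14 libraries, raw counts of nucleosome-free reads that the authors made after adapter trimming, alignment, duplicate removal with Picard, peak calling with MACS2 per library and merging of peaks found in 50% or more of a genotype's libraries. No column was left unused. The submitters' processing notes name GRCm38 (mm10), cutadapt 1.9, Picard 1.65 and MACS2 2.1.0.20150603, whereas the paper's methods name mm9 and Trimmomatic. On GRCm38, 10901 of 21840 protein-coding gene starts lay within 500 bp of a region's midpoint, against 966 after a shift of 20000 bp, so GRCm38 and GENCODE annotation were used. Positions count from 1. Libraries were assigned to the 4 groups by their titles.

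Counts were scaled by library totals (CPM), filtered by edgeR's filter on low counts and fitted in edgeR 4.0.16 (R 4.3.3, limma 3.58.1) by its quasi-likelihood method with 4 group means, robust estimation and Benjamini-Hochberg adjustment over all regions, after a test on simulated counts. Alternatives were DESeq2 1.42.0, other scalings, filters and thresholds, thinned counts, the replicate number as a block and each library left out. For the state comparisons and the interaction, the block was a term for each replicate number within its genotype. For the genotype comparisons it was a term for the replicate number alone. Same-numbered libraries of the 2 states deviated together, with correlations of 0.119, 0.243, 0.14 and 0.225 in Atg14-deficient and 0.0543, 0.209 and 0.19 in control cells. In both genotypes, every eTreg library correlated best with the cTreg library of its own number. The paper reports 3 control and 4 Atg14-deficient chimeras, but the labels do not say that a number marks a mouse. The main fit leaves this pairing out, and regions given as not called refer to that fit. If libraries of a group are not separate mice, p-values measure technical spread. Counting precision follows the depth, with a median of 35.4 counts per library over the tested receptor regions. Of all counts over regions and libraries, 82% were even, and reads were sequenced in pairs. The independent fragments behind a count may thus be fewer than the count, which was not tested. Named regions were each gene's promoter (start within 500 bp) and region of highest mean count, up to 5 state calls per gene, and up to 5 genotype differences per state past the unadjusted threshold without overlap. Sequences came from RefSeq's GRCm38.p6 with pysam 0.24.0. Python 3.11.15 and matplotlib 3.10.9 drew the figures. The receptors, lists and rules were chosen with earlier results of these data known. Values of some genes in the marker, partner and likeness lists are not reported here.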

Additional observations from a re-analysis of the deposited data

Results flagged for a closer look

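Among 66 groups of 4 Atg14-deficient libraries examined (named regions, locus sums and the sum over all member regions), 3 held a library far from the other 3, as chance alone flags about 1 in 20 such groups. All 3 were in cTregs. At the Il21r region just past the 3′ end of Il4ra (125579885), Atg14-deficient cTreg library 3 had 15.25 CPM and the others 10.5 to 11.29 CPM, and the state call there was lost without it. At the Il6ra promoter (89912748), library 1 had 7.558 CPM and the others 14.4 to 14.78 CPM. At the Il6st region of highest mean count (112424595), library 2 had 36.6 CPM and the others 51.4 to 54.17 CPM. The libraries were kept in all values of the report.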

How the results depend on the processing

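Of 15 called values of named regions, 0 changed sign under any alternative, 11 stayed called under every change of scaling, filter, test or depth, and 3 stayed called with each library left out. With the replicate number as a block, the adjusted state calls were 10 in control and 14 in Atg14-deficient cells (6 and 11 without it), beside 10.4% and 15.5% of all tested regions (5.3% and 9.81% without it), and 3 regions passed the unadjusted threshold for the interaction (0 without it). The block added 5 calls of named regions, given in the report (3 in control and 2 in Atg14-deficient cells), and ended 0. Libraries left out in turn gave 2 to 6 adjusted and 11 to 20 unadjusted state calls in control cells, 3 to 12 and 14 to 21 in Atg14-deficient cells, 4 to 9 unadjusted genotype calls in eTregs, 1 to 5 in cTregs, 0 to 4 for the interaction, and 0 to 1 loci for genotype in eTregs. The main unadjusted state counts were 17 in control and 20 in Atg14-deficient cells. With a log2 cutoff of 1, there were 8 unadjusted state calls in control cells, 7 adjusted and 9 unadjusted in Atg14-deficient cells, and 1 and 0 genotype calls in eTregs and cTregs. Limiting the members to gene bodies leaves fewer regions and gave 2 adjusted and 6 unadjusted state calls in control cells, 4 and 6 in Atg14-deficient cells, and 1 and 0 genotype calls. At least 10 counts in every library left fewer regions and gave 12 unadjusted state calls in Atg14-deficient cells and 3 genotype calls in eTregs. In cTregs, TMM, DESeq2's size factors and loess offsets each gave 1 unadjusted genotype call, and thinned counts gave 1 for the interaction. The single Il10ra locus past the unadjusted threshold was at 0 loci under TMM, DESeq2's size factors, loess offsets, the DESeq2 Wald test, thinned counts, a cutoff of 1 and gene bodies only. Whole regions of members held ETS letters in 63.4% and RUNX letters in 42.3%, beside 51.7% and 34.2% of all regions. No scaling moved the median of all regions by over 0.1, and apart from the changes of construction named, the cause was not tested. Depth limits regions of few counts most.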
